A study of Mus musculus with 6 samples.

Results

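The genes *Pax2*, *Pax8*, *Lhx1*, *Gata3*, *Cdh16*, *Emx2* and *Ret* are expressed in the nephric duct, the mesonephros and the urogenital ridge of the mouse embryo. They were read here in RNA from fetal testes. The members were all non-control probes whose transcript accession maps to 1 of these 7 genes, 8 probes in all, out of 41174 probes and 16535 matched genes on the array. *Emx2* had 2 probes and each other gene had 1. Of the 7 genes, 5 were measured above background often enough to be compared between genotypes. *Pax2* and *Ret* were not well above background on any array.

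Male gonads were taken at E14.5 from mice of mixed ICR and N2 background, and their total RNA was hybridised to 6 one-colour Agilent whole-genome arrays, 2 biological replicates for each of 3 genotypes. Nanos2+/- gonads carried 1 null allele of *Nanos2*, an RNA-binding protein of male germ cells. Nanos2-/- gonads lacked the endogenous gene. Nanos2-/-_Tg+ gonads were also null for the endogenous gene and carried a transgene for 3×FLAG-tagged NANOS2-ΔN10, which lacks the first 10 residues. The transgene was driven by 9.2 kb of sequence upstream of *Nanos2*, which is active in germ cells, and came from 1 transgenic line (#1). The null allele came from *Nanos2*-LacZ mice, so all 3 groups held at least 1 such allele. How many gonads went into each RNA sample, and whether the adjoining mesonephros was removed, is not given in the sources used here.

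The mesonephros is the transient embryonic kidney that lies beside the developing gonad, and the gonad itself forms on its surface. The nephric (Wolffian) duct runs through it. In males the duct persists and forms the epididymis, the vas deferens and the seminal vesicle, while the mesonephric tubules that join the testis form the efferent ducts. *Pax2* and *Pax8* are paired-box transcription factors that specify the nephric lineage together. *Lhx1*, a LIM homeobox factor, and *Gata3*, a zinc-finger factor, act with them in duct formation and elongation. *Ret* is the receptor tyrosine kinase for GDNF and is carried by cells of the duct tip. *Cdh16* encodes kidney-specific cadherin, an adhesion molecule of nephric tubule and duct epithelium. *Emx2*, a homeobox factor, is required for the urogenital system and is also expressed in the gonadal ridge. Several of these genes are not restricted to the mesonephros. In RNA from whole gonads, fewer cells of a type and less RNA per cell cannot be told apart.

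Levels are given as log2 of the background-subtracted, scaled fluorescence signal, with a floor at 2.32 on that scale. They compare arrays for 1 probe, not probes with each other. Across the arrays, 64.1% to 66.7% of probes were well above background, and the lowest such signals lay between log2 levels of 3.47 and 3.84. The targeted gene matched the labels, since the *Nanos2* probe read 9.42 and 10.78 in Nanos2+/-, stood at the floor of 2.32 in both Nanos2-/- arrays, and read 13.28 and 14.25 in Nanos2-/-_Tg+. The pair of Nanos2+/- arrays shared a slide and the null genotypes shared the other, so genotype and slide cannot be told apart in any comparison with Nanos2+/-. Nanos2-/- and Nanos2-/-_Tg+ were compared within 1 slide. Nanos2+/- replicate 2 held the highest reading for 38.3% of all 26698 tested probes. The difference of a probe between it and Nanos2+/- replicate 1 had a median of 0.23 log2 units over tested probes, brighter on replicate 2.

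The nephric receptor and 1 of the lineage-specifying factors were absent from the measurable range. The *Ret* probe (A_51_P324191, NM_009050) was printed in 10 spots, of which 8 to 10 on each array were usable once outlier spots were left out. None of the usable spots was well above background on any array. Its level was at the floor of 2.32 on 5 arrays and was 2.39 on Nanos2-/-_Tg+ replicate 1. The *Pax2* probe (A_51_P375526, NM_011037), also in 10 spots, read 3.42 and 3.57 in Nanos2+/-, 3.30 and 3.33 in Nanos2-/-, and 3.67 and 3.40 in Nanos2-/-_Tg+. At most 1 of its usable spots, 8 to 10 on each array, passed the background test on any array. The genotypes could therefore not be compared for *Pax2* or *Ret*, and their levels in these samples have only an upper bound set by the background.

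The related factor *Pax8* was dim but measurable. Its probe (A_51_P381297, NM_011040) read 4.93 and 4.73 in Nanos2+/-, 4.03 and 3.99 in Nanos2-/-, and 4.45 and 4.55 in Nanos2-/-_Tg+. The reading of 3.99, on Nanos2-/- replicate 2, was not well above background. The Nanos2+/- readings were above both Nanos2-/-_Tg+ readings, and these were above the 1 Nanos2-/- reading that passed the background test, while the other gives only an upper bound. The replicates differed 1.16-fold in Nanos2+/- and 1.07-fold in Nanos2-/-_Tg+.

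*Lhx1* differed most between replicates among the nephric transcription factors of the set. Its probe (A_51_P452119, NM_008498) read 7.55 and 9.45 in Nanos2+/-, 9.11 and 8.72 in Nanos2-/-, and 7.97 and 8.81 in Nanos2-/-_Tg+. The Nanos2+/- pair held both the lowest and the highest of the 6 readings, 3.75-fold apart, and only 0.517% of tested probes differed at least that much between those arrays. The other genotypes lay between these extremes. All 10 *Lhx1* spots were well above background on every array, and spots of 1 array varied with an SD of 0.0247 to 0.0942 on the log2 scale. The gap between the Nanos2+/- replicates was thus far wider than the spread of spots on an array.

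**Figure D1:**
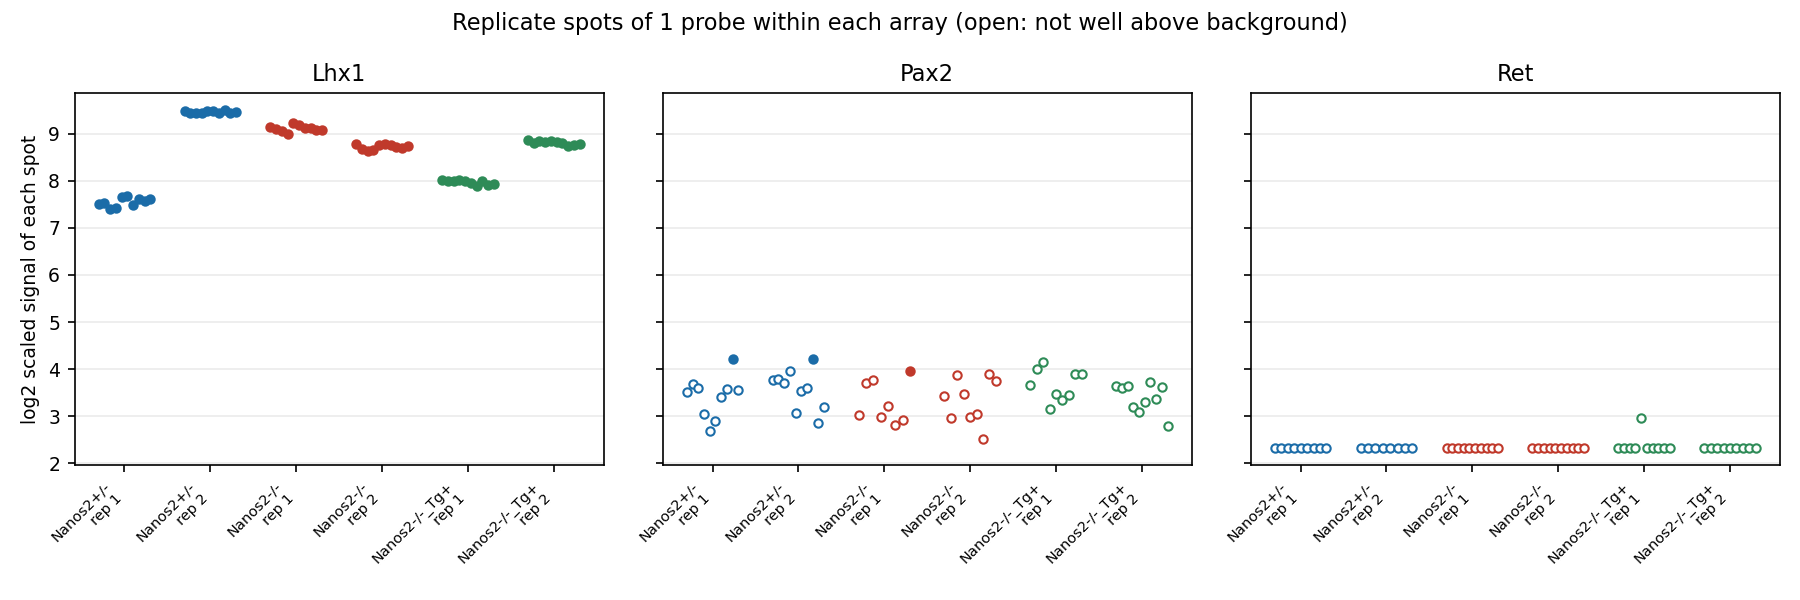
Log2 scaled signal of every usable spot of the *Lhx1*, *Pax2* and *Ret* probes on the 6 arrays, coloured by genotype, with open symbols for spots not well above background. *Lhx1* spots form a tight cluster on each array at levels from 7.55 to 9.45, *Pax2* spots scatter around the detection limit, and *Ret* spots lie at the floor of 2.32 apart from 1 spot.

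*Gata3* was the steadiest of the measured genes. Its probe (A_52_P546363, NM_008091) read 6.92 and 7.04 in Nanos2+/-, 6.86 and 6.68 in Nanos2-/-, and 6.68 and 6.77 in Nanos2-/-_Tg+. All readings lay within a 1.28-fold range, and 85.7% of tested probes varied at least as much. Both Nanos2+/- readings were above the other 4.

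The epithelial adhesion gene *Cdh16* had the widest range of the tested members. Its probe (A_51_P287100, NM_007663) read 6.05 and 8.60 in Nanos2+/-, 7.05 and 3.94 in Nanos2-/-, and 4.57 and 5.12 in Nanos2-/-_Tg+. As signals, these were 66.3 and 387, then 133 and 15.4, then 23.8 and 34.8, with the value of 15.4 not well above background. The highest array was at least 25.2-fold over the lowest, whose reading is a bound. As measured, 19 of the 26698 tested probes, 0.0712%, spanned a range that wide, some of them also with readings near background. The Nanos2+/- replicates, both well above background, differed 5.84-fold, a difference reached by 0.112% of tested probes. The Nanos2-/- replicates differed at least 8.64-fold. In Nanos2-/-_Tg+ they differed 1.46-fold. *Cdh16* was read from 1 spot on each array, as were *Pax8*, *Gata3* and each *Emx2* probe, so the spread within an array is not known for these genes.

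For *Emx2*, the gene of the set most tied to the gonadal ridge, the brighter probe (A_52_P455251, NM_010132) read 8.76 and 8.55 in Nanos2+/-, 9.12 and 9.27 in Nanos2-/-, and 8.95 and 9.55 in Nanos2-/-_Tg+. Both Nanos2+/- readings were below all others. The second probe (A_52_P462837) did not share that order. It read 6.12 and 6.15 in Nanos2+/-, 6.21 and 6.0 in Nanos2-/-, and 6.06 and 6.66 in Nanos2-/-_Tg+, so that 1 reading of each other genotype fell below both Nanos2+/- readings. Both probes were well above background on all 6 arrays and were highest on Nanos2-/-_Tg+ replicate 2.

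**Figure D2:**
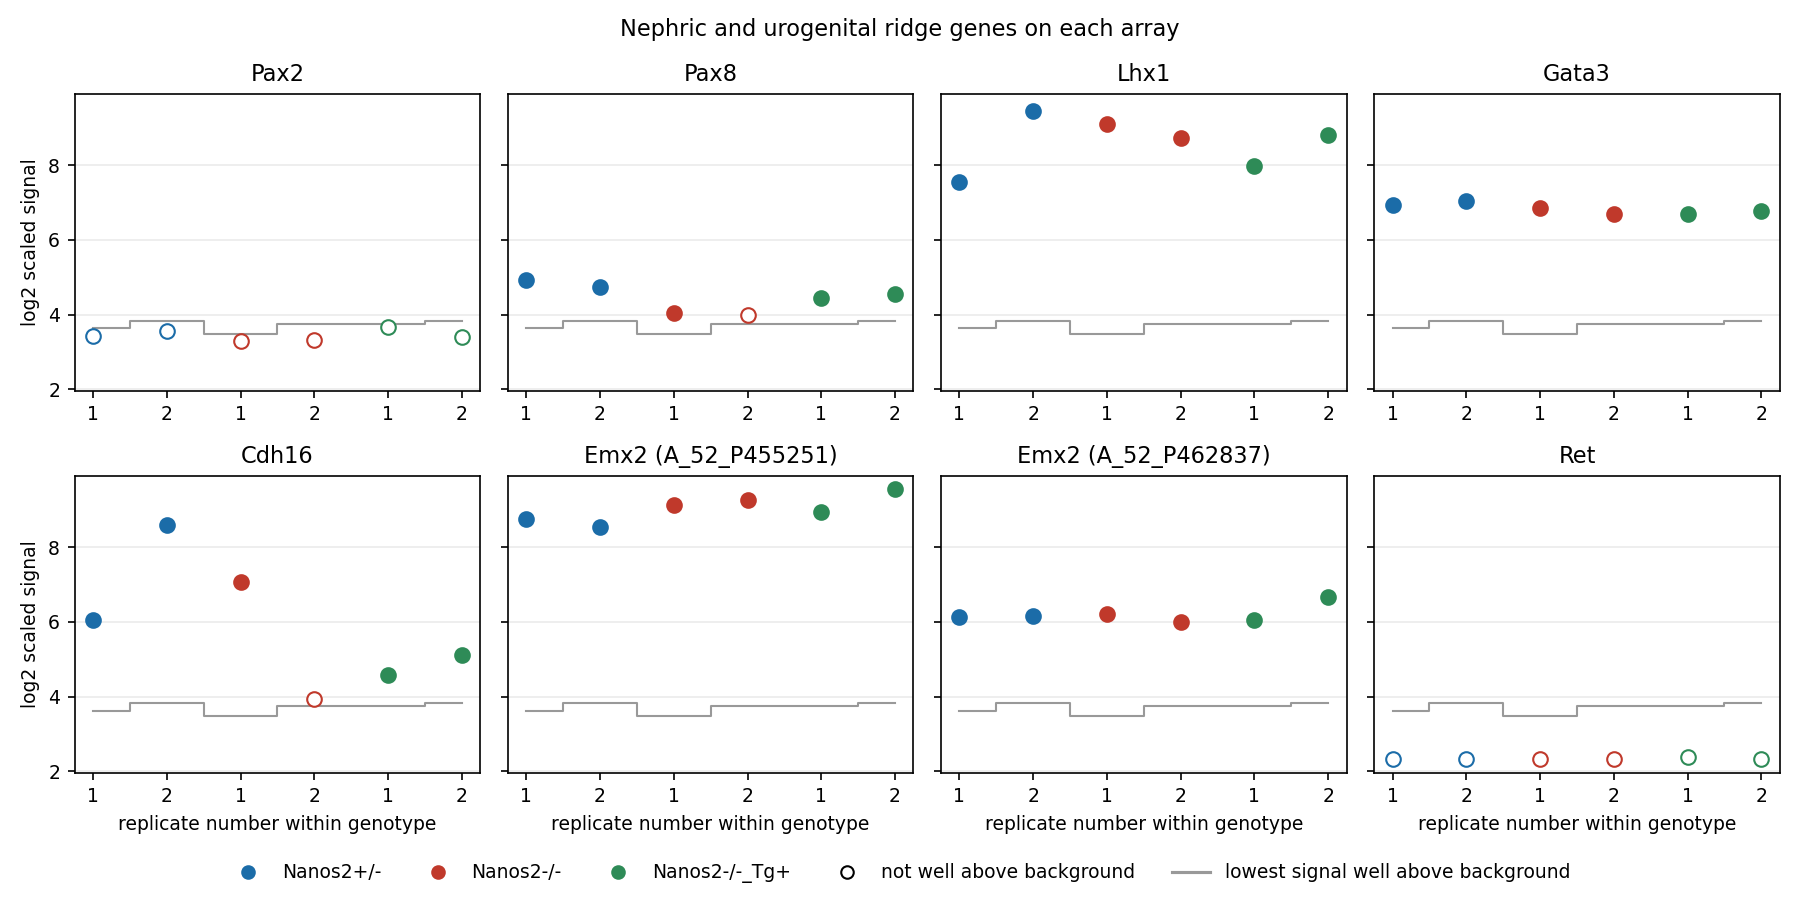
Log2 scaled signal of each of the 8 probes on the 6 arrays, in the order Nanos2+/-, Nanos2-/-, Nanos2-/-_Tg+, with replicates 1 and 2 of each. Open circles were not well above background and the grey line is the lowest log2 signal well above background on each array. *Pax2* and *Ret* lie at or below that line, *Cdh16* spans 3.94 to 8.60, and *Gata3* is nearly level.

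For the comparison of genotypes, limma was fitted to the 6 arrays together. A call needed both an adjusted p under 0.05 (Benjamini-Hochberg, over all tested probes) and a change of 2-fold or more. In Nanos2-/- against Nanos2+/-, which asks what the loss of *Nanos2* does to the gonad, 0 of the 5 tested genes were called, where 0.0674% of all tested probes were. With an unadjusted limma p under 0.05 there was 1 gene, *Pax8*, against 9.06% of all probes, and none was listed by the methods' t-test at its own limits. *Pax8* differed by -0.82 (SE 0.183, 95% interval -1.25 to -0.39, adjusted p = 0.25), and by -0.51 with a floor of 20. The Nanos2-/- replicate 2 readings of *Pax8* and *Cdh16* were not well above background, so the differences of these genes are not exact. *Cdh16* differed by -1.83, but its interval ran from -4.29 to 0.64 (adjusted p = 0.686), and single arrays moved it widely, to -3.38 without Nanos2-/- replicate 1, -3.10 without Nanos2+/- replicate 1, -0.55 without Nanos2+/- replicate 2 and -0.27 without Nanos2-/- replicate 2. The brighter *Emx2* probe differed by 0.54 (95% interval -0.02 to 1.10, adjusted p = 0.575) and the second by -0.03 (adjusted p = 0.989). *Lhx1* differed by 0.41 (95% interval -0.92 to 1.75) and *Gata3* by -0.21 (95% interval -0.64 to 0.21). The array values of the genotypes did not overlap for 3 of 5 genes, *Pax8*, *Gata3* and *Emx2*, and this was so for 36% of all tested probes. The median difference of the 5 genes was -0.21, beside -0.04 over all probes. Without Nanos2+/- replicate 1 the difference of *Lhx1* turned to -0.54 and the median became -0.54, and under another background correction (normexp) that of *Gata3* turned to 0.03.

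In Nanos2-/-_Tg+ against Nanos2+/-, which asks how far the transgenic gonads resembled the control, 0 of 5 genes were called, beside 0.105% of all probes. With an unadjusted limma p under 0.05 there were 2 genes, against 11.5% of all probes, and the methods' t-test again listed none. These were *Cdh16*, at -2.48 (SE 1.06, 95% interval -4.94 to -0.01, adjusted p = 0.430), and *Emx2*, at 0.60 (SE 0.241, 95% interval 0.03 to 1.16, adjusted p = 0.404). The *Cdh16* readings of both Nanos2-/-_Tg+ arrays were below both Nanos2+/- readings. Without Nanos2+/- replicate 1 the *Cdh16* difference was -3.75 and without replicate 2 it was -1.20. The *Emx2* difference was 0.30 without Nanos2-/-_Tg+ replicate 2 and 0.90 without replicate 1. The second *Emx2* probe differed by 0.22 (adjusted p = 0.793). *Pax8* differed by -0.33 (95% interval -0.76 to 0.10), *Gata3* by -0.26 (95% interval -0.69 to 0.17) and *Lhx1* by -0.11 (95% interval -1.45 to 1.22). Groups did not overlap for 4 of 5 genes, all but *Lhx1*, and for 38.9% of all probes. The difference of *Lhx1* turned to 0.84 without Nanos2+/- replicate 2, to 0.31 without Nanos2-/-_Tg+ replicate 1 and to 0.20 with normexp. This comparison and the one before share the Nanos2+/- arrays, so their differences are not independent of each other.

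Within the slide that held both null genotypes, Nanos2-/-_Tg+ against Nanos2-/- asks what the truncated protein changes in its absence. Again 0 of 5 genes were called, beside 0.0187% of all probes. With an unadjusted limma p under 0.05 there was 1 gene, against 2.74% of all probes, and the methods' t-test listed none. That gene was *Pax8*, higher by 0.49 in the transgenic gonads (95% interval 0.06 to 0.92, adjusted p = 1), and it was the only one of the 5 whose readings did not overlap, as for 31.4% of all probes. With a floor of 20 the difference of *Pax8* was 0.18. *Lhx1* differed by -0.53 (95% interval -1.86 to 0.81), *Cdh16* by -0.65 (95% interval -3.12 to 1.81), *Emx2* by 0.06 (95% interval -0.51 to 0.62) and *Gata3* by -0.05 (95% interval -0.47 to 0.38). The Nanos2-/- replicate 2 readings of *Pax8* and *Cdh16* were not well above background, so the differences of these genes are not exact. The interval of *Cdh16* included changes of more than 2-fold in both directions, and that of *Lhx1* included a decrease of more than 2-fold. Without Nanos2-/- replicate 1 the difference of *Cdh16* turned to 0.90, that of *Gata3* to 0.05 and that of *Emx2* to -0.02, and *Emx2* was also below 0 without Nanos2-/-_Tg+ replicate 2 (-0.24) and with normexp (-0.04). A p that misses the limit does not show that the genotypes had equal levels. With 2 arrays against 2, an exact two-sided permutation test of a single gene cannot go below 0.333.

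**Figure D3:**
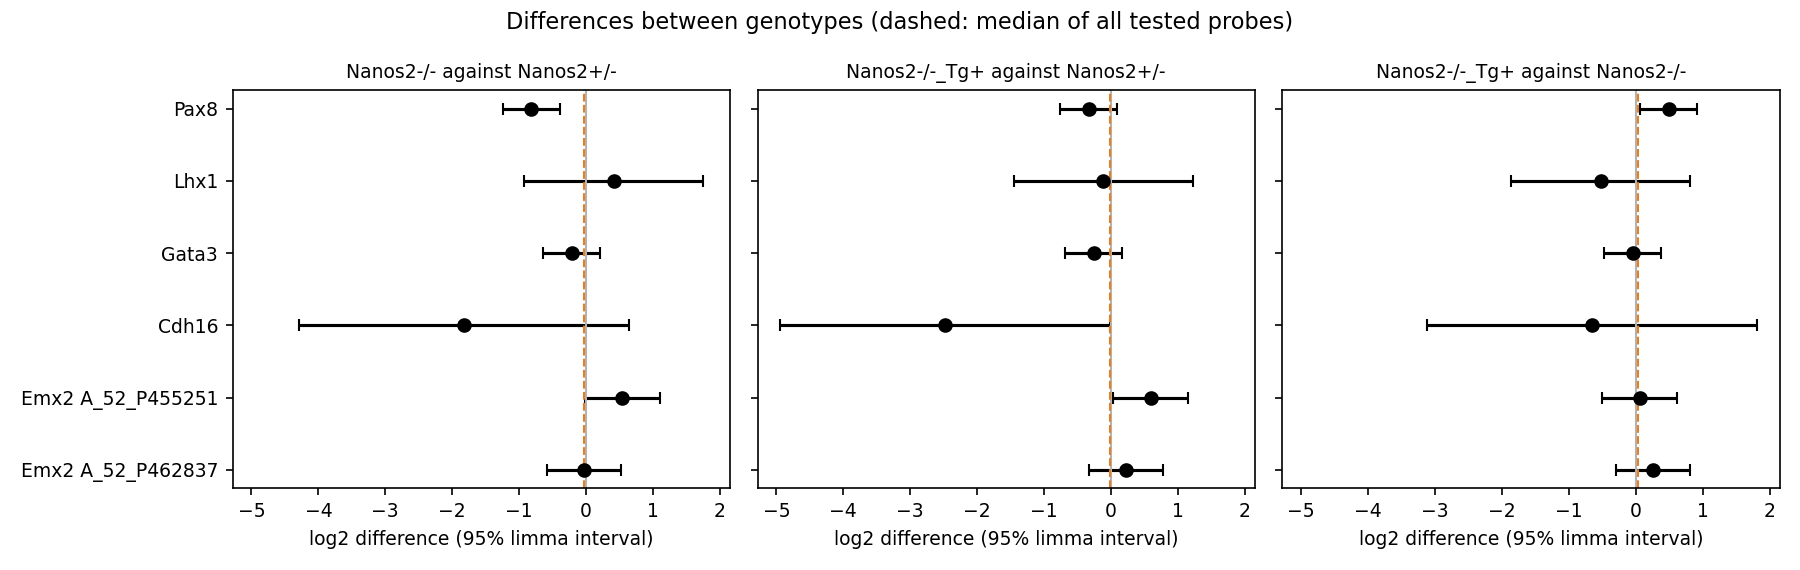
Log2 difference between genotypes, with its 95% interval from limma, for the 6 tested probes in the 3 comparisons. The dashed line is the median of all tested probes. No probe passed the limits, and the intervals of *Cdh16*, such as -4.29 to 0.64 in Nanos2-/- against Nanos2+/-, were the widest.

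The members did not all share 1 profile over the arrays. Among the 10 pairs of the 5 tested genes, Pearson r over the 6 arrays ran from -0.70 to 0.94. The highest r was that of *Gata3* with *Cdh16*, although *Gata3* varied over a much narrower range. *Pax8* had an r of 0.57 with *Gata3*, 0.35 with *Cdh16* and -0.39 with *Lhx1*. *Lhx1* had an r of 0.52 with *Cdh16*, 0.31 with *Gata3* and 0.09 with *Emx2*. The r of *Emx2* was below 0 with 3 genes, at -0.70 with *Gata3*, -0.64 with *Cdh16* and -0.53 with *Pax8*. *Lhx1* and *Cdh16* were both highest on Nanos2+/- replicate 2 and next highest on Nanos2-/- replicate 1. These are descriptions of 6 arrays that also share genotype and slide. The highest array was Nanos2+/- replicate 2 for 3 of the 5 genes. The median range over arrays was 1.00 for the 5 genes and 0.59 for all tested probes.

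Genes like the members were sought by correlation with the mean of *Lhx1*, *Gata3* and *Emx2*, the members well above background on every array. Over the 6 arrays and 17585 probes compared, r was 0.98 for *Trip4*, 0.96 for *Tkt*, *Hbb-bh1* and *Ovol2*, and 0.95 for *Ptgfr*. Because *Gata3* and *Emx2* ran in opposite directions in that mean, *Cdh16* and *Lhx1* were also followed alone, a choice made after their values were seen, among 2664 probes with a range of at least 2-fold. The profile of *Cdh16* was most like those of *Ccdc157* (r = 0.97), *Cldn6* (0.96), *Kif12* (0.94), *Gfra1* (0.93) and *ccdc198* (0.93). *Kif12*, which encodes a kinesin, read 4.49 and 6.81 in Nanos2+/-, 5.62 and 3.55 in Nanos2-/-, and 2.99 and 2.99 in Nanos2-/-_Tg+, with the last 3 not well above background. *Cldn6*, a claudin of embryonic epithelia, read 3.82 and 5.70, then 4.19 and 2.45, then 2.49 and 2.32, with the last 3 again not well above background. In both genes, as in *Cdh16*, Nanos2+/- replicate 2 was the highest and Nanos2-/- replicate 1 the next. Both were chosen for likeness to *Cdh16* on these arrays, so the shared order is not a separate observation. The profile of *Lhx1* was most like those of *Mocos* (r = 0.99), *Cpa3* (0.98), *Wnt3* (0.97), *Fzd5* (0.95) and *Ace* (0.95), so the *Cdh16* and *Lhx1* sets had no gene in common.

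**Figure D4:**
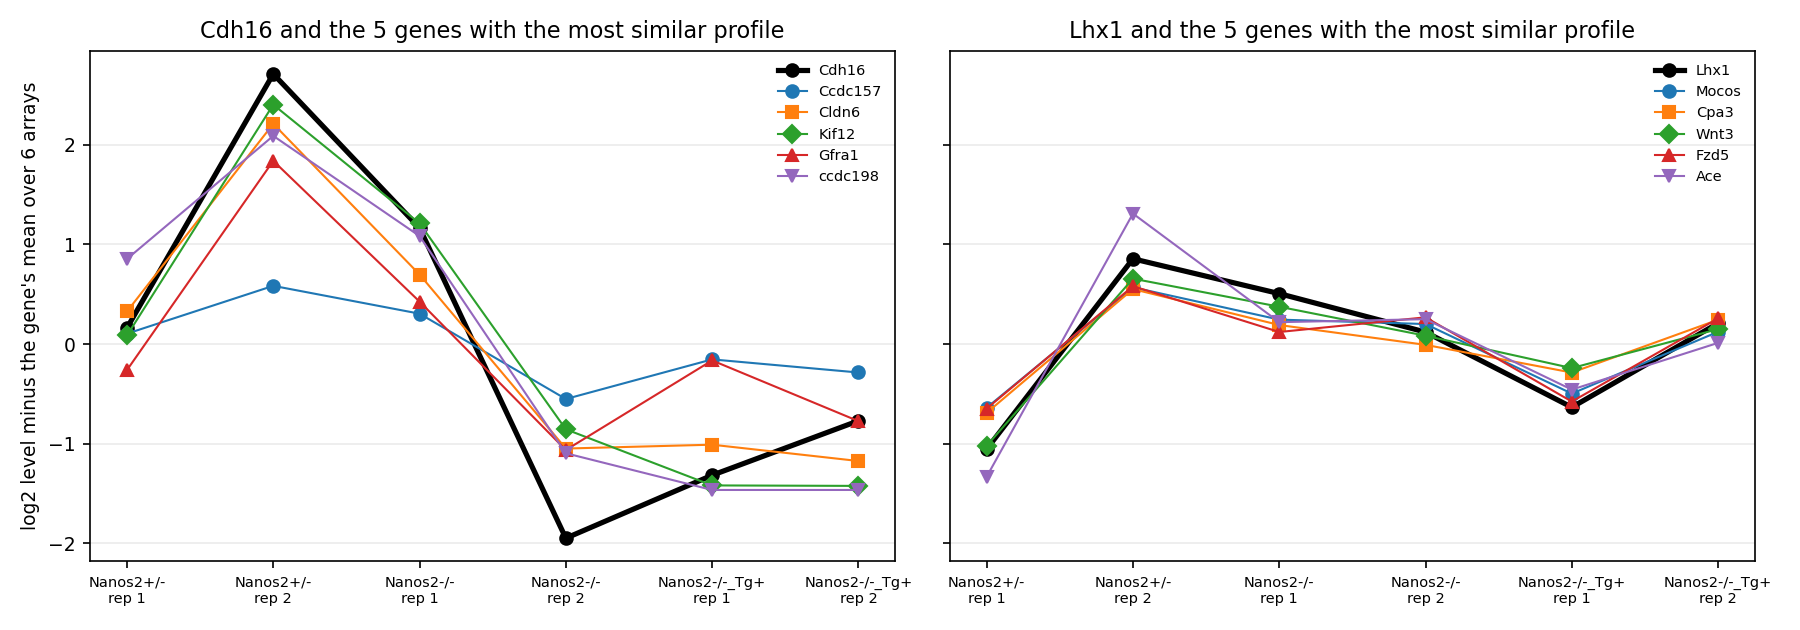
Log2 level minus each gene's own mean over the 6 arrays, for *Cdh16* (left) and *Lhx1* (right) in black and the 5 probes with the highest Pearson r to each in colour. Probes were chosen for this likeness. Both sets are highest on Nanos2+/- replicate 2. The *Cdh16* set is next highest on Nanos2-/- replicate 1, and the *Lhx1* set is lowest on Nanos2+/- replicate 1.

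Other genes of the nephric programme were read from lists. Of 13 further nephric transcription factors, 10 were tested and 0 were called in any of the 3 comparisons. *Irx3* and *Sim1* were not well above background on any array. *Foxc2* and *Eya1*, factors of the nephric mesenchyme that other tissues also use, were among the 8 factors measured on all 6 arrays. The difference of greatest size from Nanos2+/- was that of *Sall1*, a zinc-finger factor of the metanephric mesenchyme, at 0.92 in Nanos2-/- against Nanos2+/- (adjusted p = 0.409) and 0.79 in Nanos2-/-_Tg+ against Nanos2+/- (adjusted p = 0.368). It read 5.47 and 6.41 in Nanos2+/- and between 6.70 and 6.94 elsewhere. The median differences of the list were -0.02, 0.06 and 0.08 in the 3 comparisons.

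Of 10 genes of the GDNF and Ret pathway and of related nephric signals, 9 were tested and 0 were called. *Slit2*, *Spry1* and *Etv4*, a guidance ligand, an inhibitor of receptor tyrosine kinase signalling and a transcription factor downstream of Ret, were measured, while the BMP antagonist *Grem1* was not well above background on any array. The co-receptor *Gfra1* varied most between genotypes. It read 4.06 and 6.16 in Nanos2+/-, 4.75 and 3.26 in Nanos2-/-, and 4.16 and 3.55 in Nanos2-/-_Tg+, with 3.26 and 3.55 not well above background. Its differences from Nanos2+/- were -1.11 (SE 0.702, adjusted p = 0.719) and -1.26 (adjusted p = 0.555). The pair of Nanos2+/- readings, as for *Cdh16*, lay further apart than the means of any genotypes. *Wnt11*, a ligand of the ureteric tip, had the difference of greatest size in Nanos2-/-_Tg+ against Nanos2-/-, at 0.29 (adjusted p = 1). The ligand *Gdnf* itself stayed between 7.25 and 7.42 on all 6 arrays.

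Epithelial genes that duct cells express, but other epithelial and germ cells may also express, were more often lower than higher in the null genotypes without passing the test. Of 18 genes, 13 were tested and 0 were called. In Nanos2-/- against Nanos2+/-, 10 of 13 had a difference below 0, with a median of -0.34 beside -0.04 for all probes. In Nanos2-/-_Tg+ against Nanos2+/-, 11 of 13 did, with a median of -0.30 beside -0.01. In both of these comparisons genotype and slide cannot be told apart. Nanos2+/- replicate 2 held the highest reading for 7 of the 13 genes and for 38.3% of all tested probes. Within the slide of the null genotypes the median was 0.00. *Crb3*, a polarity protein of apical membranes, read 7.43 and 6.59 in Nanos2+/-, 5.64 and 4.97 in Nanos2-/-, and 4.61 and 5.04 in Nanos2-/-_Tg+. Its differences from Nanos2+/- were -1.70 (SE 0.345, adjusted p = 0.220) and -2.18 (SE 0.345, adjusted p = 0.0830). *Rab25*, a trafficking GTPase of epithelia named after its values were seen, read 6.69 on Nanos2+/- replicate 1 and between 3.81 and 4.32 on the other 5 arrays. It was well above background on only 4 of the 6 arrays, so some of its low readings are bounds. The cadherin *Cdh1* went the other way in level, at 9.46 and 10.61 in Nanos2+/- and between 10.59 and 11.38 elsewhere (adjusted p = 0.681 and 0.419). The keratins *Krt8* and *Krt18* stayed within 12.06 to 12.93. *Cldn4* and *Ehf* were not well above background on any array.

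All 9 regulators of the urogenital ridge and early gonad were measured on every array, among them *Wt1*, *Tcf21* and *Lhx9*, and 0 were called. Their median differences were -0.03, 0.11 and 0.11. The homeobox genes *Six4*, at 0.63 in Nanos2-/- against Nanos2+/- (adjusted p = 0.422), and *Lhx2*, at 0.74 in Nanos2-/-_Tg+ against Nanos2+/- (adjusted p = 0.287), differed most. Of 10 genes of duct mesenchyme and the Müllerian duct, 9 were tested and 0 were called. *Amhr2*, the receptor for anti-Müllerian hormone, *Wnt4* and *Hoxd10* were measured on all 6 arrays. *Hoxa11* had the differences of greatest size from Nanos2+/-, at 1.40 (adjusted p = 0.523) and 1.39 (adjusted p = 0.411). Its readings of 4.11 and 2.93 in Nanos2+/-, 5.76 and 4.08 in Nanos2-/-, and 4.65 and 5.16 in Nanos2-/-_Tg+ include a pair not well above background, 2.93 and 4.08, so these differences are not exact.

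Of 10 genes of the nephron tubule and glomerulus, 8 were matched, 4 were tested and 0 were called, and the tubule genes *Slc34a1* and *Umod* were not well above background on any array. *Podxl*, a podocyte surface protein that other cells also carry, and *Aqp2*, a water channel, were measured on all 6 arrays. *Nphs1*, which encodes the podocyte protein nephrin and is also expressed in the testis, read 7.33 and 8.28 in Nanos2+/-, 9.34 and 9.64 in Nanos2-/-, and 9.28 and 9.40 in Nanos2-/-_Tg+. Its differences from Nanos2+/- were 1.68 (SE 0.312, adjusted p = 0.189) and 1.53 (adjusted p = 0.144). Neither pair of groups overlapped, as for 36% and 38.9% of all tested probes in those comparisons.

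**Figure D5:**
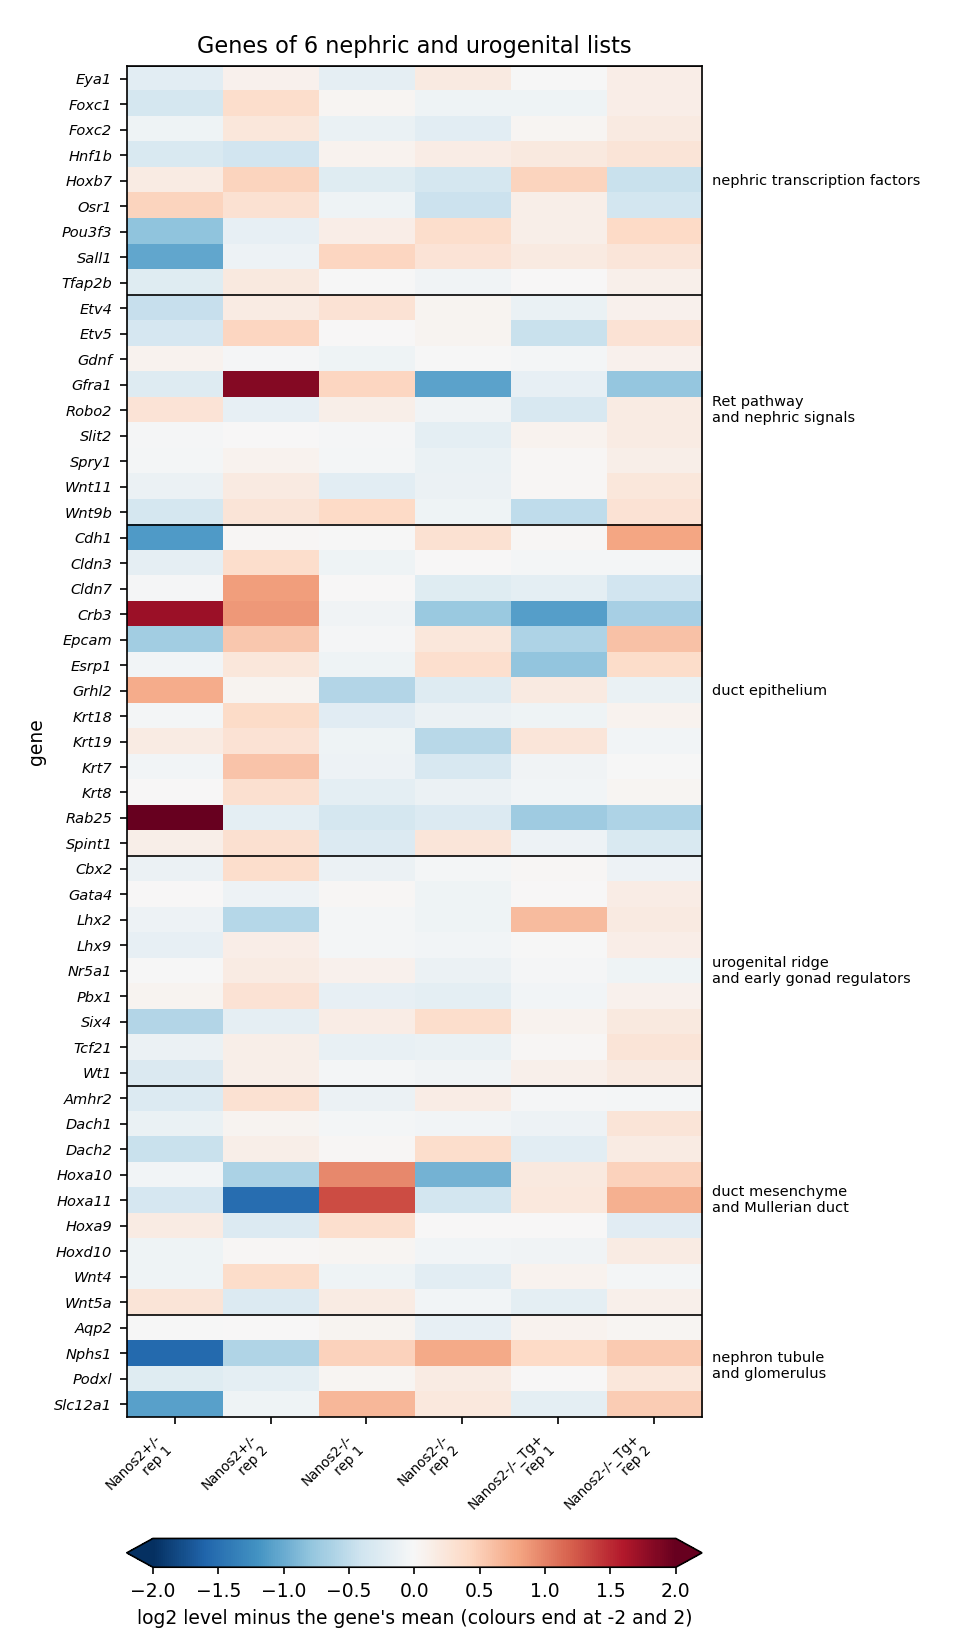
Log2 level minus each gene's mean over the 6 arrays for tested genes of 6 nephric and urogenital lists, in rows, by array, in columns; red is above and blue below the gene's mean, and colours end at -2 and 2. No list is uniformly coloured for 1 genotype, and *Gfra1*, *Crb3*, *Rab25*, *Hoxa11* and *Nphs1* stand out among mostly pale rows.

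Markers of other cell types were read on the same arrays. The summed signal of the nephric transcription factors was 4224 and 5936 in Nanos2+/-, 4366 and 4883 in Nanos2-/-, and 4690 and 4604 in Nanos2-/-_Tg+. That of the duct epithelium list was 15905 and 20806, then 14550 and 15660, then 15778 and 17909. Both sums, and that of the duct mesenchyme and Müllerian duct list (27579 to 40160), were highest on Nanos2+/- replicate 2, the array on which *Lhx1*, *Gata3* and *Cdh16* were also highest. That array also held the highest reading for 38.3% of all tested probes. It was highest for 5 of 10 tested nephric transcription factors, 7 of 13 duct epithelium genes and 2 of 9 duct mesenchyme and Müllerian duct genes. Each sum adds unlogged signals, so its brightest genes weigh most. On that array these were *Amhr2* in the duct mesenchyme list (log2 level 15.11) and *Krt18* and *Krt8* in the duct epithelium list (12.93 and 12.57). The sums of the remaining nephric and urogenital lists were highest on other arrays. The Ret pathway sum ranged from 8525 to 10461 and the urogenital ridge sum from 26952 to 33332, both highest on Nanos2-/-_Tg+ replicate 2. The urogenital ridge sum was almost the same, at 33321, on Nanos2+/- replicate 2. The nephron sum was 754 and 941 in Nanos2+/-, 1390 and 1541 in Nanos2-/-, and 1304 and 1487 in Nanos2-/-_Tg+, lowest in both Nanos2+/- arrays. Its brightest genes were *Nphs1* and *Podxl*. *Nphs1* alone read 7.33 and 8.28 in Nanos2+/- and between 9.28 and 9.64 elsewhere, so this sum is not an observation separate from *Nphs1*. *Aqp2* stayed between 6.31 and 6.55. Sums of the 6 Sertoli cell markers ranged from 113507 to 171328 and those of the 5 germ cell markers from 52665 to 75529. Both were highest on Nanos2+/- replicate 2. Sums of 4 Leydig cell markers ranged from 79982 to 105036, also highest there, and those of 5 endothelial markers from 5845 to 6937, highest on Nanos2-/-_Tg+ replicate 2. The 4 macrophage markers summed to between 806 and 1011, and the 4 erythroid markers to between 6370 and 11402. Of 4 matched adrenal markers, the steroid hydroxylases *Cyp21a1* and *Cyp11b2* were not well above background on any array, and the list summed to between 1102 and 1474. No gene of these lists was called in any comparison, and the part of any of these cell types in the members' values was not tested.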

How the data were processed

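Each of 6 Agilent whole mouse genome arrays was hybridised with Cy3-labelled cRNA from 200 ng of E14.5 male gonad RNA. The authors deposited the scanner output, in which the fluorescence intensity of each spot had been background-subtracted by Agilent Feature Extraction. The submitters' processing notes give version 9.5 of that program and the file headers 9.5.3.1, and the study's methods name another version. The deposited value table of the series held the same intensity values within 0.497% and was used as an alternative.

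The processed intensity was taken without control and outlier spots, divided so that all arrays had the same median (50th percentile), given a floor of 5, and averaged as log2 over the spots of a probe. In the study's methods the floor precedes the scaling. No spot was saturated. A probe was tested if some genotype had it well above background on both of its arrays (26698 probes, 12978 genes) with limma 3.58.1 in R 4.3.3, with all 6 arrays sharing 1 estimate of the spread and Benjamini-Hochberg adjustment over all tested probes. The number of arrays, 2 for each genotype, limits the precision, and p-values reflect the spread between these replicates. Slide numbers came from the scanner files. Accessions were matched to gene symbols through a RefSeq gene table (GRCm38.p6), for 23374 of 41174 probes. Plots were drawn with matplotlib 3.10.9.

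Groups came from the genotype labels. Same-numbered replicates of 2 genotypes deviated together (correlations of 0.407, 0.350 and 0.290 over 24953 probes), but with 2 pairs a comparison, and no label of a shared litter or day, the numbers were not taken as pairing the samples. As alternatives, results were recomputed with quantile normalization, scaling to the 75th percentile, normexp (on the median spot signal and median background, offset 50), the order and height of the floor, the filter, outlier spots kept, the series table, a replicate block, only the arrays compared, leaving out each array, the methods' t-test and the second *Emx2* probe. A gene was represented by its brightest probe. All 8 member probes were reported. In the further lists (nephric transcription factors, Ret pathway, duct epithelium, urogenital ridge regulators, duct mesenchyme and Müllerian duct, nephron, adrenal cortex, Sertoli, Leydig, germ, endothelial, macrophage and erythroid cells), genes were named for being among the 3 brightest, for the largest absolute difference, or, with their reason, for not being detected. *Gdnf* and *Rab25* were named after their values were seen. Some genes of the lists are counted but not reported here by name. The members and lists were chosen with earlier results of these data known. The script was tested on simulated data with known changes.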

Additional observations from a re-analysis of the deposited data

How the results depend on the processing

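No member gene was called in any of the 3 comparisons under any alternative run, and the lists were examined under the main settings only. The median difference of the member genes in Nanos2-/- against Nanos2+/- was -0.21 in the main analysis and 0.41 over probes well above background on all 6 arrays, a filter that leaves only 3 of the 5 genes, since *Pax8* and *Cdh16* drop out and have no value there. Leaving out 1 array at a time gave medians of -0.54 (without Nanos2+/- replicate 1) to -0.12 in that comparison, -0.38 to -0.20 in Nanos2-/-_Tg+ against Nanos2+/-, and -0.24 to 0.05 in Nanos2-/-_Tg+ against Nanos2-/-, with 0 to 0 members called. Several alternatives could not change the difference of a gene, namely the replicate block, only the arrays compared, the t-tests and the filters. Leaving out an array of a genotype not compared could not either. A count of kept signs that includes them therefore does not measure how stable the signs are. Of the differences of single genes under all alternatives, 271 kept their sign and 11 did not. In Nanos2-/- against Nanos2+/- these were *Lhx1* (-0.54 without Nanos2+/- replicate 1, the lower end of a range of -0.54 to 1.37 with 1 array left out), *Gata3* (0.027 with normexp) and *Emx2* (-0.029 by its second probe). In Nanos2-/-_Tg+ against Nanos2+/- they were the values of *Lhx1* with normexp (0.20), without Nanos2+/- replicate 2 (0.84) and without Nanos2-/-_Tg+ replicate 1 (0.31), in a range of -1.07 to 0.84 with 1 array left out. In Nanos2-/-_Tg+ against Nanos2-/- they were *Emx2* with normexp (-0.037), without Nanos2-/- replicate 1 (-0.02) and without Nanos2-/-_Tg+ replicate 2 (-0.24), and *Gata3* (0.045) and *Cdh16* (0.90) without Nanos2-/- replicate 1. With 1 array left out these ranged from -0.24 to 0.36 for *Emx2*, from -0.14 to 0.045 for *Gata3* and from -2.21 to 0.90 for *Cdh16*. Normexp moved the median of all probes by 0.60 in Nanos2-/- against Nanos2+/- and by 0.54 in Nanos2-/-_Tg+ against Nanos2+/-, to 0.56 and 0.52, and the *Gata3* value of 0.027 and the *Lhx1* value of 0.20 lie below those medians. The cause of these changes was not tested. *Cdh16* differed between -3.75 and -1.20 in Nanos2-/-_Tg+ against Nanos2+/- over all alternatives, and *Pax8* between -0.93 and -0.51 in Nanos2-/- against Nanos2+/-.

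With a replicate block, 0 members were called, and the lowest adjusted p of a member was 0.119, for *Pax8* in Nanos2-/- against Nanos2+/-. Over all probes the block gave 18, 145 and 4 calls where the main analysis gave 18, 28 and 5. Counts over all probes were sensitive to other choices, at 0, 0 and 0 with a floor of 20 or with normexp, 5, 10 and 4 with quantile normalization, and 153, 234 and 40 by the methods' t-test unadjusted (0 in each after Benjamini-Hochberg). With quantile normalization 0 of 5 calls in Nanos2-/- against Nanos2+/- were higher, where 5 of 18 were in the main analysis. Signals of *Pax2*, *Ret* and, on 1 array each, *Pax8* and *Cdh16* were too close to background to order.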
